A study of Mus musculus with 12 samples.

Results

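The expression of 10 genes of the S100 and annexin families was followed in mouse kidneys: *S100a4*, *S100a6*, *S100a8*, *S100a9*, *S100a10*, *S100a11*, *Anxa1*, *Anxa2*, *Anxa3* and *Anxa5*. They were picked by symbol from a table of 35275 genes, in which each has a single row, and no measured value entered the choice of row. RNA was sequenced from kidney tissue of 12 mice, 4 in each of 3 groups, to ask what the cystic genotype changes and what the loss of caspase-1 changes on top of it. WT mice were C57BL/6J. RC/RC mice carry the hypomorphic RC missense allele of *Pkd1* on both chromosomes (Pkd1RC/RC), a slowly progressing model of polycystic kidney disease. RC/RC:*Casp1*KO mice carry the same *Pkd1* alleles and are in addition homozygous for one TALEN-made deletion, established from a single mutation, that removes the active site and a splice donor of *Casp1*. All mice were on the C57BL/6J strain and were 6 months of age, with 2 females and 2 males in each group, and every library was made from poly(A)-selected kidney RNA. Between 18019819 and 24869454 reads were counted on genes per library, and mitochondrial genes took 7.78% to 12.1% of them. The mice of a group are numbered 1 to 4 below in the order of the table's columns. These numbers are only names, and the labels give no sex for a single column. Counts of mice 1 and 2 and of mice 3 and 4 were closer to each other than across these pairs in WT (chi-square per degree of freedom 17.7 and 16.4, against 89.8 to 127) and in RC/RC:*Casp1*KO (15.75 and 31.8, against 67.1 to 93.4). In RC/RC it was 69.7 and 37.2, against 67.6 to 128. What these pairs share was not tested, and no fit includes them, so such differences within a group are part of the spread in every test.

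The tissue label was borne out by the kidney markers. *Slc34a1*, the phosphate transporter of the proximal tubule, averaged 5850 CPM (read counts scaled to a common library size with TMM factors) in WT kidneys, 3572 CPM in RC/RC kidneys and 5077 CPM in the knockout, and *Umod* of the thick ascending limb averaged 3948, 2837 and 3268 CPM in the same order. *Casp1* averaged 1.51 CPM in WT kidneys, 3.51 CPM in RC/RC kidneys and 0.693 CPM in the knockout. Its knockout mice lay wholly below its RC/RC mice, as did 8.67% of all genes tested. The log2 fold change against RC/RC was -2.35 ± 0.32 (SE, adjusted p = 0.00514 in edgeR's test). Knockout against WT gave -1.12 ± 0.35 and did not pass (adjusted p = 0.128 in edgeR's test). Between 10 and 23 reads were still counted on *Casp1* in each knockout mouse, and where in the gene they fall was not tested. *Pkd1*, whose allele is a missense one, averaged 53.0, 55.2 and 71.6 CPM and passed the test in no comparison.

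S100 proteins are small EF-hand proteins that change shape when they bind calcium and then dock on other proteins. Annexins bind acidic phospholipids of membranes in a calcium-dependent way, and several S100 proteins bind the N-terminus of an annexin, the S100A10 to ANXA2 pair at the plasma membrane being the best known. In the kidney, annexins and S100A6, S100A10 and S100A11 are made by tubule epithelium and by stromal cells, S100A4 is widely used as a mark of fibroblasts and of some leukocytes, and S100A8 and S100A9 form calprotectin, the major cytosolic protein of neutrophils.

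By position, 11 *S100* genes lie within 185 kb of chromosome 3 (mm10, 3:90511034 to 90695721), among them *S100a4* (start 90603770, end 90606045, plus strand), *S100a6* (start 90612894, end 90614414, plus strand), *S100a8* (start 90669071, end 90670034, plus strand) and *S100a9* (start 90692632, end 90695721, minus strand). *S100a11* (start 93520488, end 93526287, plus strand) lies 2.82 Mb further along, and *S100a10* (start 93555080, end 93564643, plus strand) 28.8 kb beyond it. *Anxa5* is on the same chromosome (start 36448925, end 36475843, minus strand), while *Anxa1* is on chromosome 19 (start 20373428, end 20390944, minus strand), *Anxa2* on chromosome 9 (start 69453620, end 69491795, plus strand) and *Anxa3* on chromosome 5 (start 96793385, end 96845968, plus strand).

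The sequence just upstream of the start is shown for 3 members whose transcripts were higher in RC/RC kidneys: *S100a6*, which had the largest fold change, and *S100a11* and *Anxa2*, an S100 and an annexin whose stretch held a match to AP-1. The sequences are RefSeq promoters (GRCm38.p6, plus strand, written 5′ to 3′), ending at the base before the gene start of the table. The stretches are chr3:90612644-90612893 for *S100a6*, chr3:93520246-93520487 for *S100a11* and chr9:69453433-69453619 for *Anxa2*. Capitals mark matches to the letters TGANTCA (AP-1) or CACGTG (E-box).
S100a6: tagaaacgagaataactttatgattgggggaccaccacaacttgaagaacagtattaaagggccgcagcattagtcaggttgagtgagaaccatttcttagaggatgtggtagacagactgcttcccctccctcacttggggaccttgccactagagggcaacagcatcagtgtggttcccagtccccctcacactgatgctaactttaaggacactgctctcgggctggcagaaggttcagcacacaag
S100a11: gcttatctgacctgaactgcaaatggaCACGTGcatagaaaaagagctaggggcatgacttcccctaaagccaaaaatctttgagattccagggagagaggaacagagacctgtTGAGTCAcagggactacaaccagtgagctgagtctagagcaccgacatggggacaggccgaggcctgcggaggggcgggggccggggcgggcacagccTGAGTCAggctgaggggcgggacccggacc
Anxa2: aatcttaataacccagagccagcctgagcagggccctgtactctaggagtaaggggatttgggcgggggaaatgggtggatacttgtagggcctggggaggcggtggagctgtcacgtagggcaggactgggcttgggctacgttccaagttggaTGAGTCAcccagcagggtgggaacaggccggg
RefSeq promoters were found for 8 of the 10 members. In the 250 bases before the RefSeq start, searched on both strands, TGANTCA was present in 2 of these 8 promoters (*S100a11*, which holds it at 2 places, and *Anxa2*) and in 6.75% of all 32851 promoters. CACGTG was present in 1 of the 8 (*S100a11*) and in 6.02% of all. GGAATG (TEAD) was present in 1 of the 8 (*Anxa1*) and in 12.6% of all, and TTCNNNGAA (STAT) in 0 of the 8 and in 7.02% of all. The motifs share no bases in these 8 promoters, and a match describes the letters only. *S100a6*, *S100a4*, *S100a8*, *S100a9* and *Anxa5* had no match in this window.

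Levels differed widely between the 10 genes. Per kilobase of gene length (FPKM, recomputed from the counts), *S100a11* was the most abundant member and *S100a10* the next in all 12 kidneys. In WT kidneys *S100a11* stood at 160 ± 15.2 FPKM, *S100a10* at 95.8 ± 16.8, *Anxa5* at 68.1 ± 11.5, *S100a6* at 29.0 ± 17.2, *Anxa2* at 23.8 ± 4.21, *Anxa3* at 9.31 ± 1.99, *Anxa1* at 6.62 ± 0.889, *S100a4* at 4.60 ± 1.09, *S100a8* at 1.15 ± 0.660 and *S100a9* at 0.953 ± 0.583 FPKM (mean ± SD, n = 4). *S100a6* and *Anxa2* changed places between WT mice, as did *Anxa1* and *Anxa3*, and *S100a8* and *S100a9*. In 2 of the 4 RC/RC kidneys *S100a6* stood above *Anxa5*.

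RC/RC kidneys held more RNA of most of these genes than WT kidneys. Of the 10 members, all of which were tested, 6 rose (*S100a4*, *S100a6*, *S100a11*, *Anxa1*, *Anxa2* and *Anxa3*), 0 fell and 4 did not pass the test, at a Benjamini-Hochberg adjusted p-value under 0.05 in edgeR's quasi-likelihood test. Among all 15243 genes tested in this comparison 12.9% passed, 9.76% as higher and 3.18% as lower. The median log2 fold change of the members was 1.07, and that of all genes tested was -0.02. The 4 RC/RC mice lay wholly above the 4 WT mice for the same 6 members, while 12.6% of all genes tested were separated in that direction. The count of 6 members was 3 without WT mouse 4, when *S100a6*, *Anxa2* and *Anxa3* had adjusted p-values of 0.0540, 0.0510 and 0.0526 in edgeR's test, and stayed at 6 without any one of the other 7 mice. In a whole kidney, more cells of a type and more RNA per cell cannot be told apart.

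Kidneys that also lacked caspase-1 held less of them. Of 9 members tested in the knockout against RC/RC, 7 fell (*S100a6*, *S100a10*, *S100a11*, *Anxa1*, *Anxa2*, *Anxa3* and *Anxa5*) and 0 rose, *S100a8* being too weak to be tested. Among all 15428 genes tested 11.6% passed, 4.41% as lower. The median log2 fold change of the 9 members was -0.90 against -0.03 for all genes tested, and for 6 of them, all of the 7 but *Anxa1*, the knockout mice lay wholly below the RC/RC mice, as did 8.67% of all genes tested. The count of 7 depended on single libraries: it was 3 without RC/RC mouse 2, 1 without RC/RC mouse 3, 1 without RC/RC:*Casp1*KO mouse 1, 1 without mouse 2 and 2 without mouse 3 of that group, and between 6 and 7 without any one of the other 3 mice. With library size alone in place of TMM factors it was 2. Of the 8 fits that left out 1 mouse, *S100a6* fell in 8, *S100a11* in 5, *Anxa3* in 4, *Anxa1* and *Anxa5* in 3 each, and *S100a10* and *Anxa2* in 2 each.

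Against WT, none of the 9 members tested in RC/RC:*Casp1*KO kidneys passed the test in edgeR or in DESeq2, where 2.03% of 15346 genes passed in edgeR. The members' median log2 fold change was 0.19 and that of all genes tested was 0.01. An unadjusted p under 0.05 was reached by 1 member, *Anxa1*, whose adjusted p was 0.215 in edgeR's test. Of all 15346 genes tested, 3343 reached such an unadjusted p in edgeR. The comparisons share their mice, RC/RC entering the first and the second, so their values are given side by side and are not independent of each other.

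**Figure D1:**
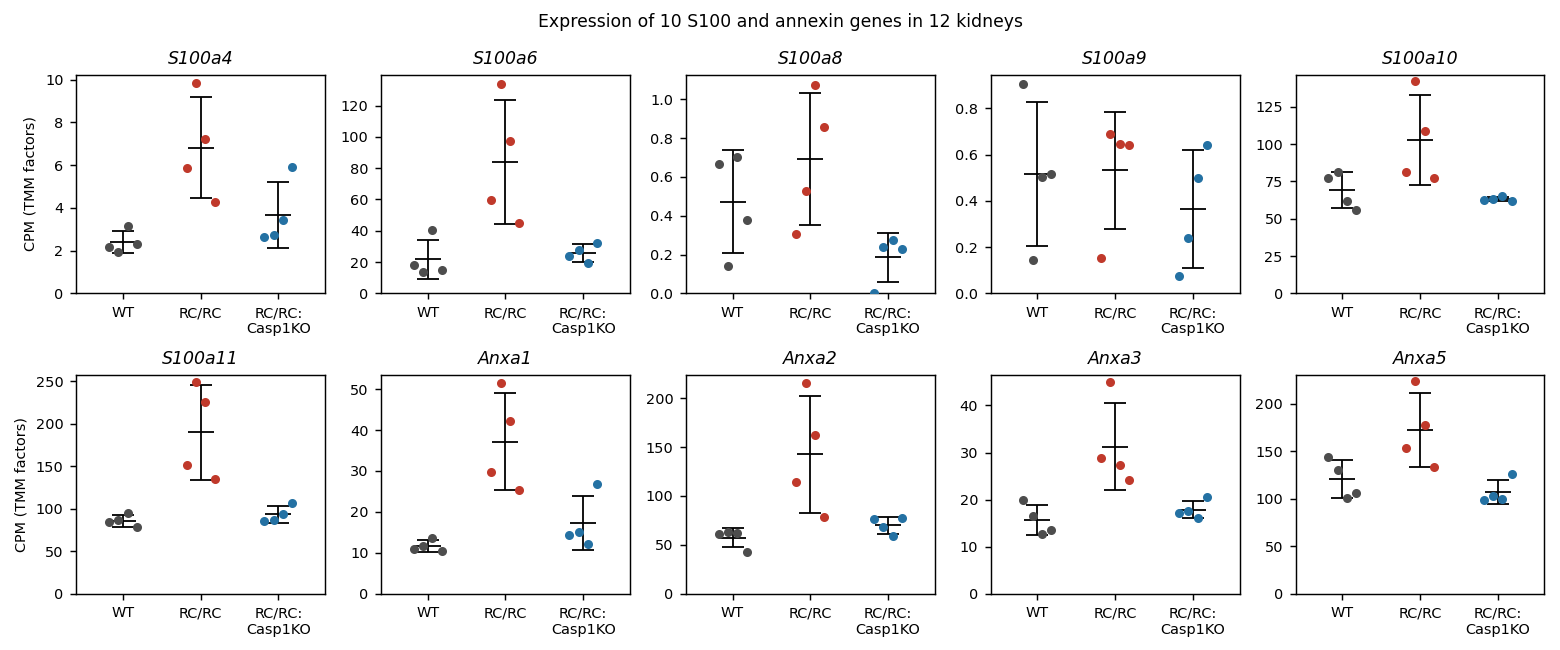
Level of each of the 10 genes in CPM (y axis, from 0, a scale of its own in each panel) in 4 kidneys of each group, with points for mice 1 to 4 from left to right, and with the mean and SD as black bars. The 4 RC/RC points lie above all WT points for *S100a4*, *S100a6*, *S100a11*, *Anxa1*, *Anxa2* and *Anxa3*, and *S100a8* and *S100a9* stay near or below 1 CPM.

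**Figure D2:**
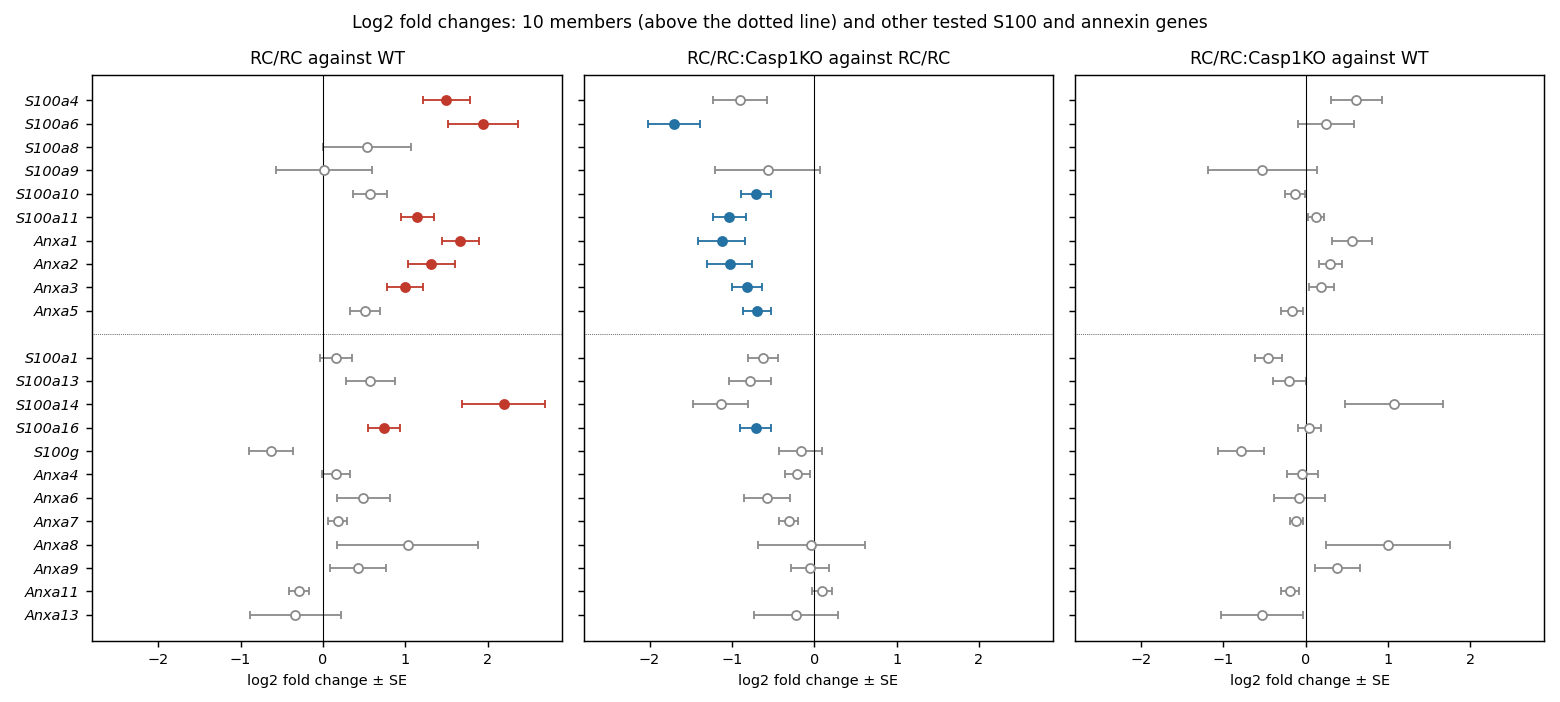
Log2 fold change (x axis) with its standard error for the 10 members and, under the dotted line, 12 other S100 and annexin genes that were tested, in the 3 comparisons. Filled red points rose and filled blue points fell at an adjusted p-value under 0.05, open grey points did not pass, and *S100a8* has a point only in the left panel.

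*S100a6*, calcyclin, which binds several annexins and the ubiquitin ligase partner CACYBP, had 18.3, 13.7, 40.5 and 14.7 CPM in WT mice 1 to 4. RC/RC mice 1 to 4 had 59.9, 134, 97.1 and 45.0 CPM, and RC/RC:*Casp1*KO mice had 23.8, 28.0, 19.4 and 32.4 CPM. WT mouse 3 stood apart from the other WT mice and came close to RC/RC mouse 4, and the knockout mice lay within the WT range. The level rose 3.84-fold in RC/RC (log2 fold change 1.94 ± 0.43, SE, adjusted p = 0.0172 in edgeR's test) and fell by 1.70 ± 0.32 on the log2 scale in the knockout (adjusted p = 0.0155 in edgeR's test). Knockout against WT gave 0.25 ± 0.34 (adjusted p = 0.687 in edgeR's test).

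*S100a11*, calgizzarin, a partner of annexin A1, was the most even member within WT, at 83.9, 86.1, 95.3 and 78.5 CPM. It reached 151, 249, 226 and 134 CPM in RC/RC mice and 85.8, 86.5, 94.1 and 107 CPM in RC/RC:*Casp1*KO mice. Every RC/RC mouse was above every mouse of the other groups. It rose 2.21-fold in RC/RC (1.14 ± 0.20, adjusted p = 0.00667 in edgeR's test) and fell by 1.04 ± 0.20 in the knockout (adjusted p = 0.0171 in edgeR's test, held in 5 of 8 fits leaving out 1 mouse), with 0.12 ± 0.10 left against WT (adjusted p = 0.488 in edgeR's test). Reference transcripts of the predicted genes Gm12854 and Gm7665 match it at 98.99% and 98.653% identity over 297 bases, and 206 and 49 reads were counted on them over all 12 libraries beside 31214 on *S100a11*. A transcript of Gm57150 matches it at 98.211% over 503 bases and was not analysed here, and how far reads were split between these copies is not known.

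*S100a4*, the fibroblast-associated member, was weak, at 2.19, 1.95, 3.17 and 2.31 CPM in WT mice (41 to 63 reads). RC/RC mice had 5.89, 9.85, 7.25 and 4.29 CPM and RC/RC:*Casp1*KO mice 2.64, 2.72, 3.44 and 5.94 CPM. RC/RC mice lay above all WT mice, but knockout mouse 4 lay among the RC/RC mice. It rose 2.82-fold in RC/RC (1.50 ± 0.28, adjusted p = 0.00935 in edgeR's test). Knockout against RC/RC gave -0.90 ± 0.33 and did not pass (adjusted p = 0.0988 in edgeR's test), though it did without knockout mouse 4 (-1.22, adjusted p = 0.0394) and in DESeq2 (adjusted p = 0.0424). Knockout against WT gave 0.62 ± 0.31 (adjusted p = 0.272 in edgeR's test). A reference transcript of Gm42674 is identical to it over 302 bases, and that gene was not analysed here.

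*S100a10*, which needs no calcium and holds annexin A2 in a tetramer that binds plasminogen and plasminogen activator at the cell surface, had 77.5, 81.5, 61.9 and 55.8 CPM in WT mice. RC/RC mice had 81.5, 142, 109 and 77.5 CPM, and RC/RC:*Casp1*KO mice 62.7, 63.2, 65.2 and 61.9 CPM. WT and RC/RC mice overlapped, whereas the knockout mice were held within a narrow band (SD 1.42 CPM) under all RC/RC mice. RC/RC against WT gave 0.57 ± 0.21 and did not pass (adjusted p = 0.108 in edgeR's test). In the knockout it fell by 0.71 ± 0.18 against RC/RC (adjusted p = 0.0395 in edgeR's test), a call that held in 2 of 8 fits leaving out 1 mouse. Against WT the knockout gave -0.13 ± 0.12 (adjusted p = 0.562 in edgeR's test), a sign that turned to 0.0048 with library size alone.

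*Anxa2*, the annexin partner of S100A10, had 60.7, 62.8, 62.5 and 42.7 CPM in WT mice. In RC/RC mice it reached 114, 215, 162 and 78.2 CPM and in RC/RC:*Casp1*KO mice 76.4, 67.9, 58.9 and 77.7 CPM. RC/RC mouse 4 was only just above the highest knockout mouse, and WT mouse 4 was below all others. It rose 2.49-fold in RC/RC (1.32 ± 0.29, adjusted p = 0.0160 in edgeR's test) and fell by 1.03 ± 0.27 in the knockout (adjusted p = 0.0413 in edgeR's test, held in 2 of 8 fits leaving out 1 mouse), with 0.30 ± 0.14 left against WT (adjusted p = 0.254 in edgeR's test). Of the antisense gene Gm16144 that overlaps it, 49 reads were counted beside 22809 on *Anxa2*.

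The ratio of this pair of transcripts was described in each mouse. The FPKM of *S100a10* over that of *Anxa2* was 4.25, 4.32, 3.30 and 4.35 in WT mice, 2.38, 2.20, 2.23 and 3.30 in RC/RC mice, and 2.73, 3.10, 3.68 and 2.65 in RC/RC:*Casp1*KO mice. The lowest WT mouse and the highest RC/RC mouse met at 3.30, and the other 3 mice of each group were well apart. The neighbours *S100a11* and *S100a10* also parted: their FPKM ratio was 1.42 to 2.06 in WT, 2.33 to 2.78 in RC/RC and 1.83 to 2.32 in RC/RC:*Casp1*KO mice, so that RC/RC mice did not overlap with either group. These ratios are descriptions and were not tested.

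**Figure D3:**
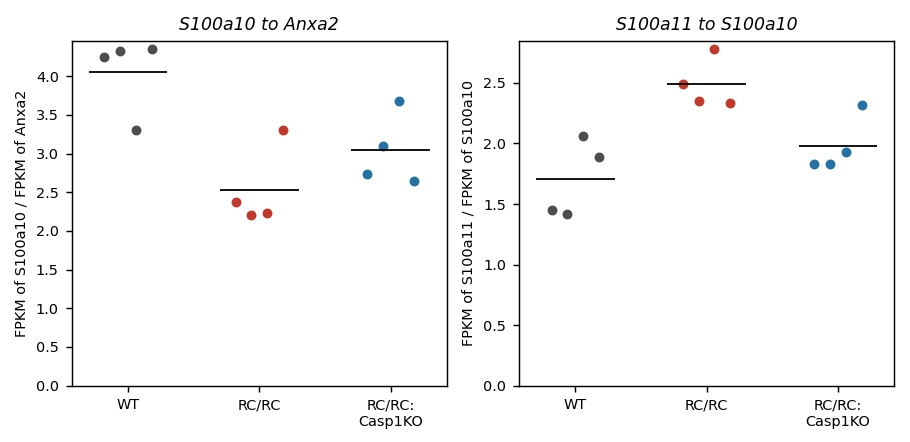
Ratio of FPKM values (y axis, from 0) of *S100a10* to *Anxa2* (left) and of *S100a11* to *S100a10* (right) in each of the 12 kidneys by group, with the mean as a line. On the left 3 of 4 RC/RC mice lie under all WT mice, and on the right all 4 RC/RC mice, from 2.33 to 2.78, lie above all others.

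*Anxa1*, an inhibitor of phospholipase A2 and a ligand of formyl peptide receptors, had 10.96, 11.6, 13.7 and 10.5 CPM in WT mice. RC/RC mice had 29.7, 51.4, 42.2 and 25.4 CPM, and RC/RC:*Casp1*KO mice 14.4, 15.2, 12.2 and 26.9 CPM. Knockout mouse 4 lay above RC/RC mouse 4 and well above the other 3 knockout mice. The gene rose 3.18-fold in RC/RC (1.67 ± 0.22, adjusted p = 0.00191 in edgeR's test), the lowest adjusted p among the members. In the knockout it fell by 1.12 ± 0.29 against RC/RC (adjusted p = 0.0378 in edgeR's test, held in 3 of 8 fits leaving out 1 mouse), and knockout against WT gave 0.56 ± 0.24 (adjusted p = 0.215 in edgeR's test).

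*Anxa3*, a smaller annexin of myeloid and epithelial cells, had 19.9, 16.4, 12.7 and 13.6 CPM in WT mice, 28.8, 44.9, 27.3 and 24.1 CPM in RC/RC mice, and 17.1, 17.6, 16.2 and 20.5 CPM in RC/RC:*Casp1*KO mice. All RC/RC mice were above all other mice. It rose 2.00-fold (1.00 ± 0.22, adjusted p = 0.0161 in edgeR's test) and fell by 0.82 ± 0.19 in the knockout (adjusted p = 0.0277 in edgeR's test, held in 4 of 8 fits leaving out 1 mouse). Against WT the knockout gave 0.19 ± 0.15 (adjusted p = 0.480 in edgeR's test).

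*Anxa5*, which coats membranes that expose phosphatidylserine, had 144, 130, 101 and 106 CPM in WT mice, 153, 224, 178 and 134 CPM in RC/RC mice, and 99.0, 103, 99.9 and 126 CPM in RC/RC:*Casp1*KO mice. WT and RC/RC mice overlapped, and knockout and RC/RC mice did not. RC/RC against WT gave 0.51 ± 0.18 and did not pass (adjusted p = 0.0989 in edgeR's test). The gene fell by 0.69 ± 0.17 in the knockout against RC/RC (adjusted p = 0.0320 in edgeR's test, held in 3 of 8 fits leaving out 1 mouse), and knockout against WT gave -0.17 ± 0.14 (adjusted p = 0.498 in edgeR's test). *Anxa5* and *S100a10* were thus called in the second comparison and not in the first, and the difference between the comparisons was not tested.

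Both subunits of calprotectin were near the limit of detection. *S100a8* was counted 14, 3, 14 and 8 times in WT mice, 8, 10, 20 and 20 times in RC/RC mice and 0, 5, 5 and 5 times in RC/RC:*Casp1*KO mice. *S100a9* was counted 19, 3, 10 and 11 times in WT, 4, 13, 12 and 15 times in RC/RC and 2, 5, 9 and 14 times in RC/RC:*Casp1*KO mice. A count of 0 in knockout mouse 1 allows up to 0.115 CPM, the level of 3 reads, for counting error only. RC/RC against WT gave 0.53 ± 0.54 for *S100a8* (adjusted p = 0.536) and 0.02 ± 0.59 for *S100a9* (adjusted p = 0.990) in edgeR's test, and *S100a9* gave -0.56 ± 0.64 in the knockout against RC/RC (adjusted p = 0.575) and -0.53 ± 0.66 against WT (adjusted p = 0.665). The *S100a8* counts of knockout mice all lay under those of RC/RC mice, at 0.186 ± 0.126 against 0.692 ± 0.341 CPM. When all genes with at least 1 count were tested, that difference gave -1.90 on the log2 scale and an adjusted p of 0.126 in edgeR's test. DESeq2 gave -1.94 for it (adjusted p = 0.0532) and edgeR's fit of all 12 libraries gave -1.905 (adjusted p = 0.0855), and neither passed. What size of change could be resolved at this depth was not tested for either gene.

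In RC/RC and RC/RC:*Casp1*KO, the mice of a group varied together across most members. Among RC/RC mice, mouse 2 was the highest and mouse 4 the lowest for all 8 members other than *S100a8* and *S100a9*. In the knockout group mouse 4 was the highest for 7 of these 8, *S100a10* being the exception. No such order was seen in WT, where mouse 3 was the highest for 4 members and the lowest for 2. WT mouse 4 was the lowest for 4 (*S100a10*, *S100a11*, *Anxa1* and *Anxa2*) and the highest for 0. The coefficient of variation in RC/RC ran from 22.7% for *Anxa5* to 47.3% for *S100a6* among the 8. Summed over the 10 genes, WT mice had between 325 and 419 CPM, RC/RC mice 624, 1072, 850 and 524 CPM, and RC/RC:*Casp1*KO mice 382, 384, 370 and 460 CPM. All RC/RC sums were above the sums of the other 8 mice.

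**Figure D4:**
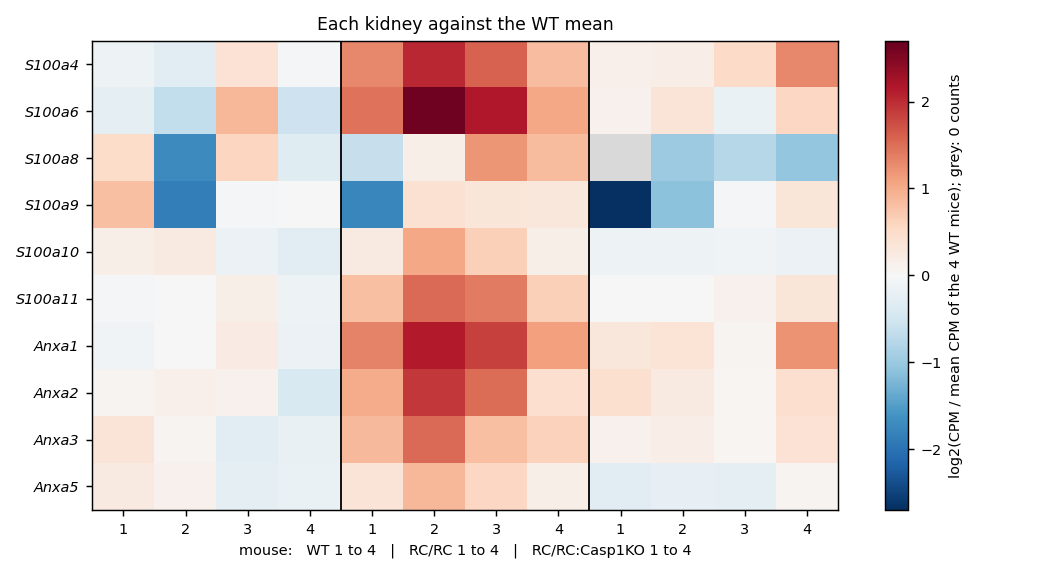
Each of the 12 kidneys (columns, mice 1 to 4 of each group, WT on the left, RC/RC in the middle and the knockout on the right) against the mean CPM of the WT mice, as log2 of the ratio (colour), for the 10 members (rows); grey marks a count of 0. RC/RC mouse 2 is the darkest red column and knockout mouse 4 the reddest of its group, and *S100a8* and *S100a9* follow a pattern of their own.

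The table held 18 further S100 and annexin genes, of which 12 were tested, and 2 of these rose in RC/RC: *S100a14*, an epithelial S100, from 0.822 ± 0.602 to 3.79 ± 0.525 CPM (2.20 ± 0.50, adjusted p = 0.0200 in edgeR's test), and *S100a16* from 50.0 ± 8.42 to 83.8 ± 22.2 CPM (0.74 ± 0.20, adjusted p = 0.0371 in edgeR's test). *S100a16* fell in the knockout, to 51.4 ± 6.60 CPM (-0.71 ± 0.19, adjusted p = 0.0409 in edgeR's test), and *S100a14* stood at 1.73 ± 0.739 CPM there (-1.14 ± 0.33, adjusted p = 0.0547 in edgeR's test). Leaving out single mice moved these counts: *S100a14* passed in 5 and *S100a16* in 2 of the 8 fits of RC/RC against WT that left out 1 mouse, and *S100a16* in 2 of the 8 of the knockout against RC/RC. None of the 12 passed in RC/RC:*Casp1*KO against WT in edgeR or in DESeq2, where 2 had an unadjusted p under 0.05. So did 3343 of all 15346 genes tested there in edgeR. Among all genes tested 9.76% were called higher in RC/RC and 4.41% lower in the knockout against RC/RC. The median log2 fold changes of the 12 were 0.30, -0.27 and -0.10 in the 3 comparisons.

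None of the 7 other annexins tested (*Anxa4*, *Anxa6*, *Anxa7*, *Anxa8*, *Anxa9*, *Anxa11* and *Anxa13*) passed in edgeR or in DESeq2 in any comparison, with unadjusted p-values under 0.05 for 1, 1 and 0 of them in edgeR. In the same order, 4457 of 15243, 4889 of 15428 and 3343 of 15346 genes tested had an unadjusted p under 0.05. *S100g*, calbindin-D9k of the distal nephron, was the most abundant of these further genes, with 633 ± 202 CPM in WT, 409 ± 102 in RC/RC and 367 ± 108 in RC/RC:*Casp1*KO kidneys, and its log2 fold change in RC/RC was -0.63 ± 0.27 (adjusted p = 0.153 in edgeR's test). *S100a3* and *S100a5*, which flank *S100a4* at distances of 1.07 and 2.48 kb, stayed below 0.13 CPM on average in every group and were not tested, nor were *S100a7a*, *S100b*, *S100z* and *Anxa10*. *S100a7l2* was not matched by symbol.

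Of 14 receptors, ligands and partners of these proteins, 11 were tested in RC/RC against WT and 4 rose, where 9.76% of all genes tested were called higher. *Tlr4*, a receptor of calprotectin, went from 4.55 ± 0.812 to 8.57 ± 1.28 CPM (0.91 ± 0.19, adjusted p = 0.0133 in edgeR's test). *Ahnak*, the scaffold bound by the S100A10 and ANXA2 tetramer, went from 108 ± 17.6 to 189 ± 33.6 CPM (0.81 ± 0.17, adjusted p = 0.0126 in edgeR's test), and *Pla2g4a*, the cytosolic phospholipase A2 that annexin A1 inhibits, from 8.79 ± 1.84 to 18.9 ± 5.04 CPM (1.10 ± 0.23, adjusted p = 0.0133 in edgeR's test). *Plaur*, the urokinase receptor, passed as well (0.77 ± 0.21, adjusted p = 0.0413 in edgeR's test), but its groups overlapped and it passed in 2 of the 8 fits that left out 1 mouse. *Plat*, *Plau*, *Cd36*, *Ager*, *Sri*, *Dysf* and *Cacybp* did not pass.

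In the knockout against RC/RC 2 of 12 partners tested fell, where 4.41% of all genes were called lower. These were *Plaur* to 6.71 ± 1.27 CPM (-0.84 ± 0.20, adjusted p = 0.0300) and the S100A6 binder *Cacybp* to 35.5 ± 3.87 CPM (-0.70 ± 0.19, adjusted p = 0.0433 in edgeR's test). Each was lost in most of the fits that left out 1 mouse, since *Plaur* passed in 3 of 8 and *Cacybp* in 1 of 8. *Ahnak* stood at 212 ± 38.7 CPM in the knockout, which gave 0.15 ± 0.17 against RC/RC (adjusted p = 0.572 in edgeR's test), and was higher than in WT (0.98 ± 0.17, adjusted p = 0.0250 in edgeR's test), and this call held in 2 of 8 such fits. In the main fits *Fpr1* and *Plg* were too weak to be tested in any comparison. There *Fpr2*, a receptor of annexin A1, was tested only in the knockout against RC/RC. *Fpr2* averaged 0.132 ± 0.0708 CPM in WT, 0.627 ± 0.234 in RC/RC and 0.421 ± 0.125 in RC/RC:*Casp1*KO kidneys. Its RC/RC mice (10 to 16 reads) and knockout mice (5 to 13 reads) lay above all WT mice (1 to 4 reads). Of all genes tested, 12.6% were separated in that direction in RC/RC against WT and 7.4% in the knockout against WT. DESeq2, a filter of at least 1 count and a fit of all 12 libraries each called 5 partners in RC/RC against WT.

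Markers of other cell types moved in the same samples. Among all genes tested, 9.76% were called higher in RC/RC against WT and 4.41% lower in the knockout against RC/RC. Of 9 fibroblast markers 9 rose in RC/RC against WT and 7 fell in the knockout against RC/RC, and their summed level was 412, 305, 346 and 370 CPM in WT mice, 1322, 2321, 1287 and 966 CPM in RC/RC mice, and 395, 536, 378 and 802 CPM in RC/RC:*Casp1*KO mice. *Dcn*, the most abundant of them per length over the 12 mice although *Tagln* stood above it in WT, had 27.0 to 35.1 CPM in WT mice but 130 to 266 CPM in RC/RC mice. The fibroblast count of the knockout against RC/RC was 3 without RC/RC mouse 2 or knockout mouse 1, 2 or 3, 4 without RC/RC mouse 3, and 7 or 8 without one of the others. Of the macrophage and monocyte markers, 10 of 11 measured ones rose in RC/RC and 3 fell in the knockout, with sums of 147 to 175, 327 to 455 and 180 to 400 CPM and *C1qa* as the most abundant per length. Those 3 were *C1qa*, *C1qb* and *Cd14*, beside 4.41% of all genes called lower, and the count was 7 without knockout mouse 4 and 0 or 1 without any one of the other 7 mice. In CPM the largest part of these sums was *Csf1r*, which averaged 70.25 in WT, 99.7 in RC/RC and 110.9 in the knockout. *C1qa* averaged 22.07, 73.29 and 31.74 CPM. *Csf1r* was the marker that did not pass in RC/RC (0.50 ± 0.17, adjusted p = 0.0829 in edgeR's test). Knockout against RC/RC gave 0.15 ± 0.19 for it (adjusted p = 0.629 in edgeR's test). Of 8 markers of injured epithelium 7 rose and 2 fell, with sums of 127 to 186, 372 to 511 and 195 to 361 CPM and *Krt8* as the most abundant. The 2 that fell were *Krt8* and *Krt19*, while all 8 had an unadjusted p under 0.05 in edgeR, and the count was 6 without knockout mouse 4, 2 or 3 without RC/RC mouse 1 or 4, and 0 without any one of the other 5 mice. Of 6 lymphocyte markers 6 rose (3 without RC/RC mouse 2 or WT mouse 2, and 4 or 5 without one of the others), and 0 fell in the knockout in edgeR or in DESeq2 (2 had an unadjusted p under 0.05 in edgeR, and *Cd2* passed without knockout mouse 4), with summed levels of at most 17.2 CPM. In the knockout against RC/RC, 4889 of all 15428 genes tested had an unadjusted p under 0.05 in edgeR. RC/RC mouse 2 had the highest fibroblast, injured epithelium and lymphocyte sums of its group and RC/RC mouse 4 the lowest of all these lists. Knockout mouse 4 had the highest of all these lists in its own group, and the part of these cell types in the levels of the S100 and annexin genes was not tested.

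Endothelial and collecting duct markers did not pass in edgeR's test of the 8 libraries of each comparison, but some did under other settings. Of 5 endothelial markers, 2, 3 and 0 had an unadjusted p under 0.05 in the 3 comparisons and DESeq2 called 1, 2 and 0. Of 5 collecting duct markers, 5, 2 and 1 had an unadjusted p under 0.05 and DESeq2 called 2, 0 and 0. Among all genes tested in edgeR, 4457 of 15243, 4889 of 15428 and 3343 of 15346 had an unadjusted p under 0.05. DESeq2 called 3018 of 23626, 3182 of 23885 and 1390 of 23869 genes. The edgeR fit of all 12 libraries called *Cdh5*, *Aqp2* and *Hsd11b2* higher in RC/RC and *Pecam1* lower in the knockout, library size alone called *Aqp3* higher in RC/RC, and *Cdh5*, *Pecam1*, *Aqp2* and *Hsd11b2* were each called in 1 fit or more that left out 1 mouse. Neutrophil markers were scarce: *Mpo*, *Elane*, *Ngp* and *Ly6g* had between 0 and 3 reads in every library. Only 3 of 11 could be tested and 1, *Mmp9*, rose in RC/RC, where 9.76% of all genes tested were called higher. DESeq2 called *Csf3r* as well there, which edgeR gave at 1.29 ± 0.43 (adjusted p = 0.0791) with separate groups. *Mmp9* fell in the knockout, a call that held in 2 of the 8 fits leaving out 1 mouse. The sum of the neutrophil markers was 2.19 to 4.58 CPM in WT, 5.92 to 8.59 CPM in RC/RC and 2.72 to 8.56 CPM in RC/RC:*Casp1*KO mice. All RC/RC sums were thus above all WT sums. *Csf3r*, the most abundant of these markers per length over all 12 mice, had 0.476 to 6.12 CPM. Of 8 nephron markers used to check the tissue, *Slc12a3* and *Nphs1* fell in RC/RC, and *Lrp2* and *Slc12a3* rose in the knockout against RC/RC, where 3.18% of all genes were called lower in the first and 7.23% higher in the second comparison. Leaving out 1 mouse kept the fall of *Slc12a3* and the rise of *Lrp2* in 8 of 8 fits, but the fall of *Nphs1* and the rise of *Slc12a3* in 2 of 8 each. Among RC/RC mice, mouse 2 had the highest endothelial sum (544.7 CPM) and the lowest nephron sum (6952 CPM). RC/RC mouse 4 had the lowest endothelial sum (391.5 CPM) and the highest nephron sum (11280 CPM).

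**Figure D5:**
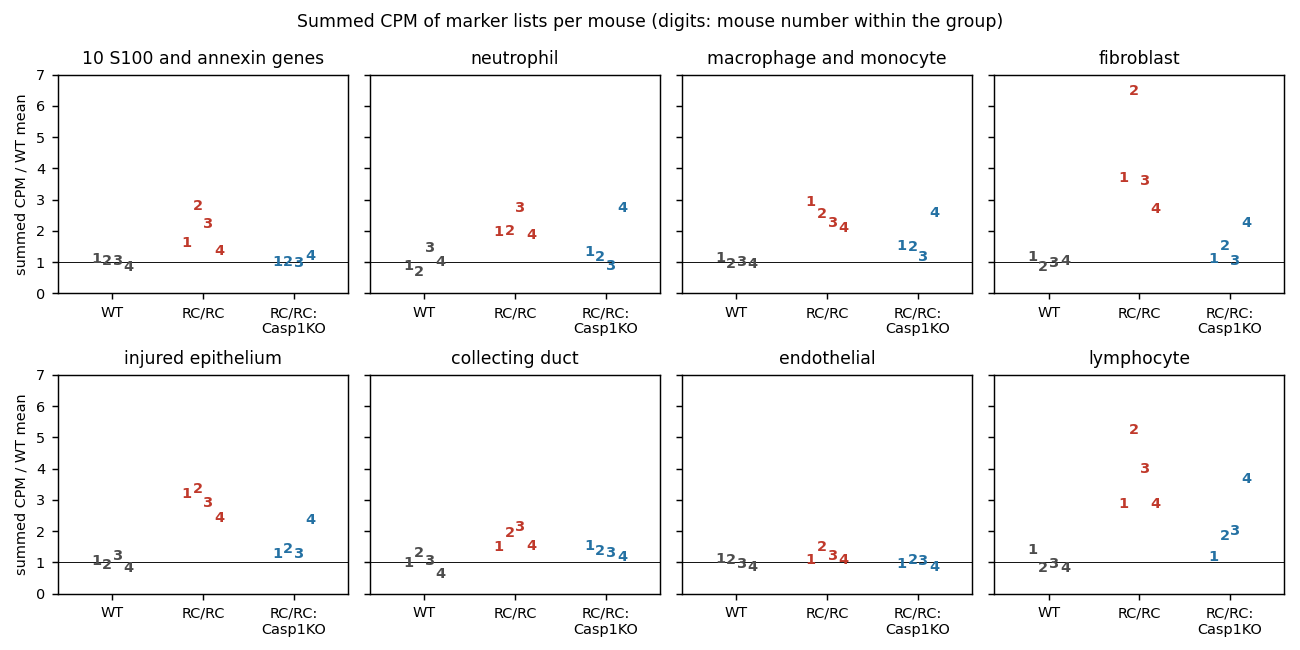
Summed CPM of the 10 S100 and annexin genes and of 7 lists of cell type markers in each kidney, divided by the mean sum of the WT mice (y axis, from 0; the line marks 1); digits give the mouse number within its group. RC/RC mouse 2 stands highest for the S100 and annexin genes and for fibroblast markers, and knockout mouse 4 highest of its group for most lists.

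Over the 12 libraries and 15875 genes, the genes whose log2 CPM followed *Anxa2* most closely were *Fmnl3* (Pearson r = 0.989), *Ggta1* (0.977), *Clec11a* (0.975), *Tmsb4x* (0.973) and *Cnn2* (0.973). For *S100a11* they were 2200002D01Rik (0.982), *Clic1* (0.979), *Crip1* (0.974), *Gnai2* (0.971) and *Ets2* (0.971). These 12 points share the difference between the groups, so the values describe likeness of pattern over groups and mice together.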

How the data were processed

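RNA from the kidneys of 12 mice was sequenced as poly(A) libraries, which the labels describe without a strand-marking step. The authors deposited one table for the series, whose counts are raw whole-number reads per gene and library. Per the submitters' processing notes, CASAVA 1.8, STAR and mm10 were used, and the counting tool, annotation and strand setting are not given in the sources used here. The fold changes, p-values and FPKM values that the authors deposited beside the counts were not used. Gene lengths are as deposited.

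Columns name the group and a mouse, not the sex or replicate number. Replicates are the 4 mice of a group, as labelled. To look for duplicated libraries, the 18 within-group pairs were compared, and none agreed within sampling noise (chi-square over its degrees of freedom from 15.75 to 128).

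Each pair of groups was fitted with edgeR 4.0.16 (R 4.3.3) over its 8 libraries: TMM, filterByExpr, quasi-likelihood test, Benjamini-Hochberg adjustment over all genes tested, threshold 0.05. SE was taken as the ratio of the log2 fold change to the root of the F statistic. CPM values use TMM factors of all 12 libraries. FPKM was computed from the counts, gene lengths and reads counted per library. Depth limits weak genes: a floor of 3 counts is 0.115 to 0.166 CPM. Transcripts nearly identical to a member were looked for with BLAST 2.17.0 (95% identity, 250 bases). Scripts were tested on simulated data.

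The members and all lists were chosen with earlier results of these data known. Named are the 10 members, other S100, annexin and partner genes past the threshold (at most 3 per list and comparison) or not tested, *Casp1* and *Pkd1*, the most abundant gene of each marker list, and the 5 genes most like *Anxa2* and *S100a11*; genes named outside this rule, among them the nephron and neutrophil markers and the genes given as not passing, were chosen after their values were seen. The alternatives were DESeq2 1.42.0, RLE factors, library size alone, filters of at least 1 count and of at least 10 counts in every library, a fit of all 12 libraries, and leaving out each mouse. Those for the marker lists were added after seeing the data. Protein sequences were not used here.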

Additional observations from a re-analysis of the deposited data

Results flagged for a closer look

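Of 30 sets of 4 mice (10 genes in 3 groups), 4 held a mouse whose distance from its nearest neighbour exceeded Dixon's 95% critical share of the range (a criterion by which chance marks about 1 in 20). *S100a8* had 0 CPM in RC/RC:*Casp1*KO mouse 1, while the other 3 mice had 0.230, 0.238 and 0.277 CPM. *S100a9* had 0.153 CPM in RC/RC mouse 1 and 0.643, 0.644 and 0.688 CPM in the others, values that rest on 4 to 15 reads. *Anxa2* had 42.7 CPM in WT mouse 4 and 60.7, 62.5 and 62.8 CPM in the others. *Anxa5* had 126 CPM in RC/RC:*Casp1*KO mouse 4 and 99.0, 99.9 and 103 CPM in the others.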

How the results depend on the processing

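The direction held for every member in RC/RC against WT and in RC/RC:*Casp1*KO against RC/RC under all alternatives run, except *S100a9* in the first, which gave -0.15, -0.09, -0.10, -0.29 and -0.02 without RC/RC mouse 2, 3 or 4 or WT mouse 2 or 3, and up to 0.43 without WT mouse 1. In the knockout against WT *S100a10* turned to 0.0048 with library size alone, which moved the median of all genes to 0.14. *S100a8* and *S100a9* could not be tested with a filter of 10 counts. Leaving out 1 mouse gave 3 to 6 members called in RC/RC against WT, 3 only without WT mouse 4 (*S100a6*, *Anxa2* and *Anxa3* at adjusted p 0.0540, 0.0510 and 0.0526 in edgeR's test), 1 to 7 in the knockout against RC/RC and 0 to 0 against WT. The same ranges were 0 to 2, 0 to 2 and 0 to 0 for the other S100 and annexin genes, 3 to 5, 0 to 2 and 0 to 1 for partners, and 1162 to 2440, 438 to 2789 and 108 to 547 for all genes. DESeq2 called 3018, 3182 and 1390 of all genes, 4 partners and 4 other S100 and annexin genes in the knockout against RC/RC and 3 partners in the knockout against WT. Library size alone gave 2 members, 0 partners, 0 other S100 and annexin genes and 993 genes in the knockout against RC/RC, with *S100a10*, *Anxa1*, *Anxa2*, *Anxa3* and *Anxa5* at adjusted p 0.0628 to 0.0706. A fit of all 12 libraries called 2 other S100 and annexin genes there. The filter of 10 counts left 1 other S100 or annexin gene in RC/RC against WT and 167 genes in the knockout against WT. The cause of these shifts was not tested. No paired analysis was possible because the columns carry no replicate numbers and the groups are separate mice; a fit with the pairs of like libraries within groups was not made.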
